A study of Saccharomyces cerevisiae with 8 samples.

Results

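Commercial baker's yeast (Saccharomyces cerevisiae) kept frozen for 7 days was compared with the same yeast at 0 days of freezing, by genome-wide messenger RNA levels measured after thawing. The comparison rests on the arrays titled as 7 day freezing, replicates 1 and 2, and those titled as 0 day freezing, replicates 1 and 2, which are 4 of the 8 arrays of the series. The other 4 come from 3 and 14 days, and they entered the estimate of the spread between replicates. In all groups compressed yeast was suspended in a liquid fermentation medium without sucrose or maltose, at an OD600 of 30, and placed at -20 °C. The 7 day samples stayed there for 7 days, and the 0 day samples are labelled as frozen for 0 days. Both were thawed for 10 min at 30 °C, by the protocol given for each. The 0 day group therefore stands for the shortest freezing time that the labels record, and they do not say whether its cells froze at all. The labels give no strain name, genotype or ploidy, and they describe the 2 samples of each time as independent. Whether these came from separate cultures is not stated, so p-values measure the spread between these samples.

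Freezing is known to harm yeast through ice crystals, loss of water and, on thawing, oxidative damage. Proteins that lose their fold are bound by chaperones, which can refold them, or are marked with ubiquitin and degraded by the proteasome. Trehalose, glycerol and proline are known cryoprotectants in yeast. Growing cells spend much of their transcription on ribosomes, amino acid synthesis and DNA replication, and these genes are commonly lowered in stressed yeast while respiratory and stress genes are raised.

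Of 5188 genes tested, 6 rose and 5 fell at 7 days (limma, Benjamini-Hochberg adjusted p under 0.05), which is 0.116% and 0.0964% of the genes, or 0.212% together. The risers were ROQ1, FUB1, DIC1, YNR014W, MIC10 and TIP1, and the genes that fell were RNR1, OPT2, LYS9, SMF3 and RPS1B. At an unadjusted p under 0.05 there were 635 higher genes (12.2%) and 350 lower ones (6.75%). Both 7 day arrays lay above both 0 day arrays for 29.8% of the genes and below them for 20.5%. The median log2 fold change over all genes was 0.17, with a median standard error of 0.45 for a single gene. The RNA was from whole samples, so a smaller number of surviving cells and less RNA per cell cannot be told apart, and only levels relative to the other transcripts of an array were measured.

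The number of called genes rested on single arrays. Without 7 day replicate 1 it was 5, with 0 of the 11 named genes among them, and without 7 day replicate 2 it was 2. Without 0 day replicate 1 it was 147, and without 0 day replicate 2 it was 20. It was 0 without 3 day replicate 1, without 14 day replicate 1 or without 14 day replicate 2, and 6 without 3 day replicate 2. The 11 genes kept their direction in all alternatives tried.

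**Figure D1:**
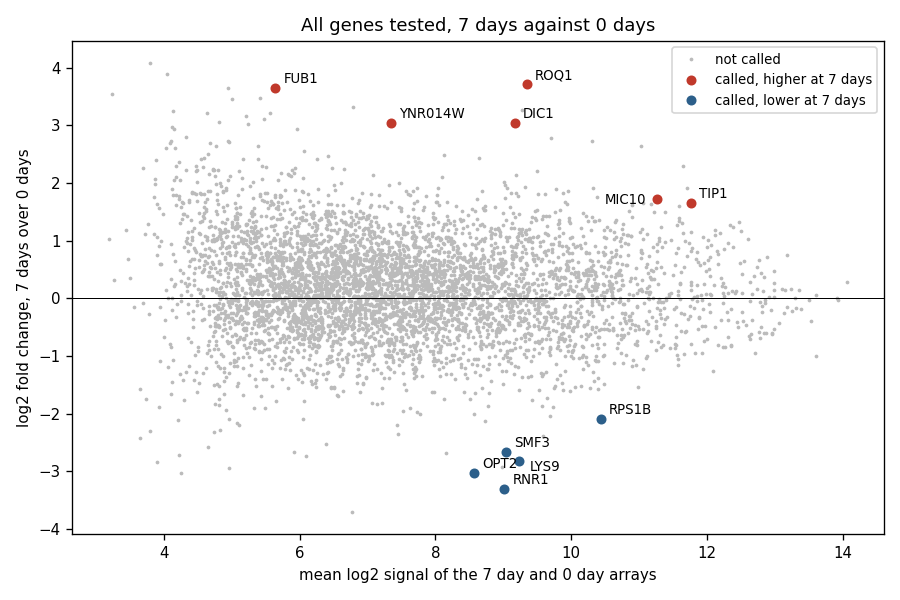
Log2 fold change of 7 days over 0 days (y axis) against the mean log2 signal of the 7 day and 0 day arrays (x axis), with 1 point per gene for 5188 genes. The 6 genes that rose are red and the 5 that fell are blue, and many uncalled genes at low signal have fold changes as large as those of the called genes.

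The arrays of the 2 times were also compared as wholes. Replicates correlated across genes at r = 0.938 for the 7 day pair and r = 0.877 for the 0 day pair. The 7 day arrays correlated with the 0 day arrays at r = 0.852 to 0.884. The value of the 0 day pair lies within that range, so the correlations did not set the 0 day arrays apart. Ribosomal RNA control probe sets stood at 17.1 and 22.7 times the array median at 7 days, against 8.85 and 6.76 times at 0 days. The part of this difference in the results below was not tested. ACT1, whose ratio of 3' over 5' signal tracks RNA integrity, had ratios of 2.16 and 1.70 at 7 days and 1.54 and 2.86 at 0 days. The same ratio of SPT15 was 2.80 and 2.69 at 7 days and 2.72 and 4.32 at 0 days. Neither ratio separated the times, and both were highest in 0 day replicate 2. Hybridisation controls read 499 and 246 at 7 days against 610 and 660 at 0 days. Spiked poly(A) control transcripts read 126 and 24.4 in 7 day replicates 1 and 2, against 18.6 and 20.5 at 0 days. Deposited array medians were 110 and 72.3 at 7 days against 60.5 and 51.6 at 0 days. The part of these traits in the results was not tested.

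Among the called genes, the largest rises were in 2 genes of protein quality control. ROQ1 (locus YJL144W) encodes a small protein that turns the ligase Ubr1 towards misfolded substrates. Its signal was 3637 and 1526 in 7 day replicates 1 and 2, against 246 and 131 in 0 day replicates 1 and 2. Both 7 day samples were far above both 0 day samples, and replicate 1 was the higher one at both times. ROQ1 rose 13.1-fold (log2 fold change 3.71, SE 0.50 with n = 2 samples a time, adjusted p = 0.0229 by limma). FUB1 (YCR076C), which encodes a protein that binds the proteasome, had signals of 184 and 169 at 7 days and of 9.47 and 20.9 at 0 days. The 0 day signals were low, around the level of 17.9 that a gene's mean had to reach to be tested. The rise was 12.5-fold (log2 fold change 3.65, SE 0.47, adjusted p = 0.0229 by limma), and its size is less certain because of those low signals.

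Mitochondrial genes and a mannoprotein gene were also among the risers. DIC1 (YLR348C), the carrier that exchanges dicarboxylates across the inner membrane, had signals of 2320 and 1175 at 7 days and of 170 and 236 at 0 days. It rose 8.24-fold (log2 fold change 3.04, SE 0.44, adjusted p = 0.0229 by limma), and the 7 day arrays differed from each other more than the 0 day arrays did. MIC10 (YCL057C-A), a subunit of the complex that shapes the cristae, read 4602 and 4329 at 7 days against 1488 and 1233 at 0 days. Replicates lay close together at both times, and the rise was 3.30-fold (1.72, SE 0.27, adjusted p = 0.0373 by limma). A second, dimmer probe set of MIC10 gave a log2 difference of 1.20. The cold-induced wall mannoprotein gene TIP1 (YBR067C) read 6892 and 5563 at 7 days and 2403 and 1599 at 0 days, among the brightest of the called genes. TIP1 rose 3.16-fold (1.66, SE 0.28, adjusted p = 0.0499 by limma), just inside the threshold. YNR014W, whose product has no well-established function, had signals of 663 and 330.0 at 7 days against 69.5 and 46.3 at 0 days. That is an 8.24-fold rise (3.04, SE 0.50, adjusted p = 0.0422 by limma).

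Genes of DNA precursor synthesis, uptake, lysine synthesis and the ribosome made up the falls. RNR1 (YER070W), the large subunit of ribonucleotide reductase, the enzyme that makes deoxyribonucleotides, read 104 and 261 at 7 days against 1348 and 1946 at 0 days. RNR1 fell 9.84-fold (log2 fold change -3.30, SE 0.47, adjusted p = 0.0229 by limma). OPT2 (YPR194C), an oligopeptide transporter, read 113 and 157 at 7 days and 776 and 1501 at 0 days. Both 7 day samples were below both 0 day samples, and the fall was 8.11-fold (-3.02, SE 0.42, adjusted p = 0.0229 by limma). LYS9 (YNR050C), a saccharopine dehydrogenase of lysine synthesis, had signals of 187 and 277 at 7 days and of 1374 and 1871 at 0 days. It fell 7.04-fold (-2.82, SE 0.42, adjusted p = 0.0230 by limma). SMF3 (YLR034C), which carries iron out of the vacuole, read 156 and 280 at 7 days and 1437 and 1209 at 0 days. SMF3 fell 6.30-fold (-2.66, SE 0.38, adjusted p = 0.0229 by limma). RPS1B (YML063W), a protein of the small ribosomal subunit, read 653 and 696 at 7 days against 2647 and 3080 at 0 days, with replicates close at both times. The fall was 4.24-fold (-2.08, SE 0.31, adjusted p = 0.0230 by limma), and its probe set can also bind the near-identical RPS1A, so the value may combine both genes.

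Calls ended in different numbers of the 19 other settings that were listed for each gene. These were 6 for ROQ1, FUB1 and OPT2, 7 for DIC1, RNR1 and LYS9, 8 for SMF3, 10 for YNR014W and RPS1B, 12 for MIC10 and 13 for TIP1. Without the intensity trend in the variance, limma called 0 genes, with 896 at an unadjusted p under 0.05. In a fit of all probe sets, 10 of the 11 genes were still called and YNR014W was not.

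Against the other freezing times, the called genes had 14 day signals close to their 7 day signals. At 7 days against 3 days, 9 of the 11 genes also passed the test, in a comparison that shares the 7 day arrays and in which 62 genes (1.2%) were called. OPT2 read 1316 and 1664 at 3 days, level with or above its 0 day signals, and its log2 difference at 7 days over 3 days was -3.47 (limma adjusted p = 0.0121). YNR014W had a log2 difference of 3.17 at 7 days over 3 days (limma adjusted p = 0.0289), and RPS1B one of -2.14 (limma adjusted p = 0.0287). FUB1 and DIC1 did not pass. FUB1 already had signals of 94.4 and 150 at 3 days, and its log2 difference at 7 days over 3 days was 0.57 (limma adjusted p = 0.522). DIC1 read 641 and 748 at 3 days, between its 0 day and 7 day signals, with a log2 difference at 7 days over 3 days of 1.25 (limma adjusted p = 0.156). RNR1 read 750 and 981 at 3 days, also between the 2 times, and passed against 3 days (-2.38, limma adjusted p = 0.0452). At 3 days against 0 days limma called 0 genes, with 364 (7.02%) at an unadjusted p under 0.05. At 7 days against 14 days it called 0 genes, with 48 (0.925%) at an unadjusted p under 0.05, and the 11 genes differed by 0.050 to 0.56 on the log2 scale between those times. A p that misses the threshold does not show that the levels were the same.

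**Figure D2:**
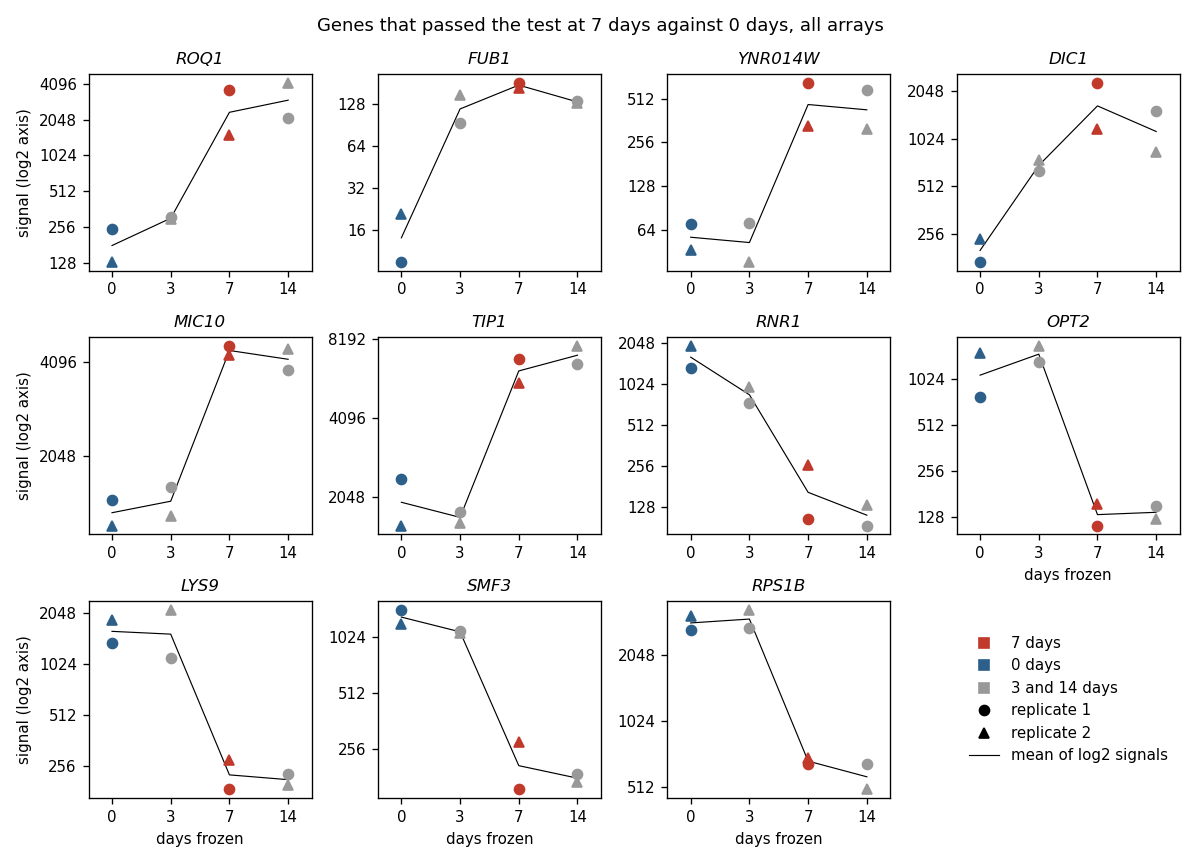
Normalised signal on a log2 axis (y) at 0, 3, 7 and 14 days frozen (x) for the 11 genes that passed the test at 7 days against 0 days, with 1 point per array (circles replicate 1, triangles replicate 2) and a line through the means of the log2 signals. For all 11 genes the 7 day points (red) lie clear of the 0 day points (blue), and FUB1, DIC1 and RNR1 are already at intermediate or near-final levels at 3 days.

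Genes that narrowly missed the threshold add values without calls. On the higher side, FES1, the nucleotide exchange factor of cytosolic Hsp70, read 8872 and 7406 at 7 days and 3341 and 3347 at 0 days (log2 fold change 1.28, limma adjusted p = 0.0505). In a fit of all probe sets FES1 passed (limma adjusted p = 0.0427). The next were YMR085W at 3.45, with 0 day signals as low as 10.4 and 8.97, and YHR022C at 4.08, both with limma adjusted p = 0.0539, and YHR022C was in 0 day replicate 1 at 2.52, the floor to which lower signals were raised. ROX1, the repressor of hypoxic genes, read 803 and 546 at 7 days and 173 and 80.5 at 0 days (2.49, limma adjusted p = 0.0547). The calmodulin-dependent kinase gene CMK2 was at 3.47, its 0 day signals of 9.16 and 18.1 being as low as those of FUB1. The J-protein gene HLJ1 was at 2.78, the cytochrome c heme lyase gene CYC3 at 2.01 and MNC1 at 1.79. EAP1, a translation inhibitor, read 177 and 216 at 7 days and 53.9 and 44.4 at 0 days. RDN5-3, a 5S ribosomal RNA gene, had a log2 fold change of 2.30 (limma adjusted p = 0.0566), in the same direction as the ribosomal RNA controls, on a probe set that can bind its identical copies.

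On the lower side, LYS2, the aminoadipate reductase of lysine synthesis, read 176 and 234 at 7 days and 987 and 797 at 0 days (log2 fold change -2.13, limma adjusted p = 0.0539). VBA4, named as a transporter of basic amino acids into the vacuole, was at -1.97. YHM2, a mitochondrial carrier of citrate and oxoglutarate, was at -1.87. The ribosomal protein gene RPS22A read 7999 and 9797 at 7 days against 16452 and 18923 at 0 days. The cell wall glucanase gene SCW10 was at -2.03, the histidine synthesis gene HIS6 at -1.95, the ceramide synthase gene LAC1 at -1.86 and the ribosomal protein gene RPS10B at -1.54. Other probe sets gave -3.10 for SCW10, which passed in a fit of all probe sets (adjusted p = 0.0427 by limma), and -3.81 for RPS10B. LOS1, a nuclear export factor for transfer RNA, was at -1.81. GWT1, of glycosylphosphatidylinositol anchor synthesis, read 89.4 and 134 at 7 days and 335 and 574 at 0 days. All of these had limma adjusted p-values from 0.0539 to 0.0608, and none is counted as changed. At an adjusted p under 0.1 there were 82 higher genes (1.58%) and 45 lower ones (0.867%).

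Gene groups are described by their counts at an unadjusted p under 0.05 and by their medians, beside 12.2% higher, 6.75% lower and a median of 0.17 over all genes. These counts are not calls, and members of a group may vary together. Of the 46 groups, 19 had both 7 day arrays above both 0 day arrays in their level, 11 had both below, and 16 overlapped. A group's level is the median over members of the log2 signal minus the gene's 0 day mean. All genes tested, taken as 1 group, also counted as above. Their level was 0.17 and 0.19 at 7 days against -0.016 and 0.016 at 0 days. Some of the 19 groups had medians close to that of all genes, such as cristae and import genes at 0.25 and permeases at 0.26. In 19 groups the 2 replicates of 0 days differed by more than the size of the median log2 fold change, so those groups' values depend on which 0 day array is used. Leaving out 1 of the 4 arrays moved the median by over 1.5 times or changed its sign in 34 of the 46 groups.

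**Figure D3:**
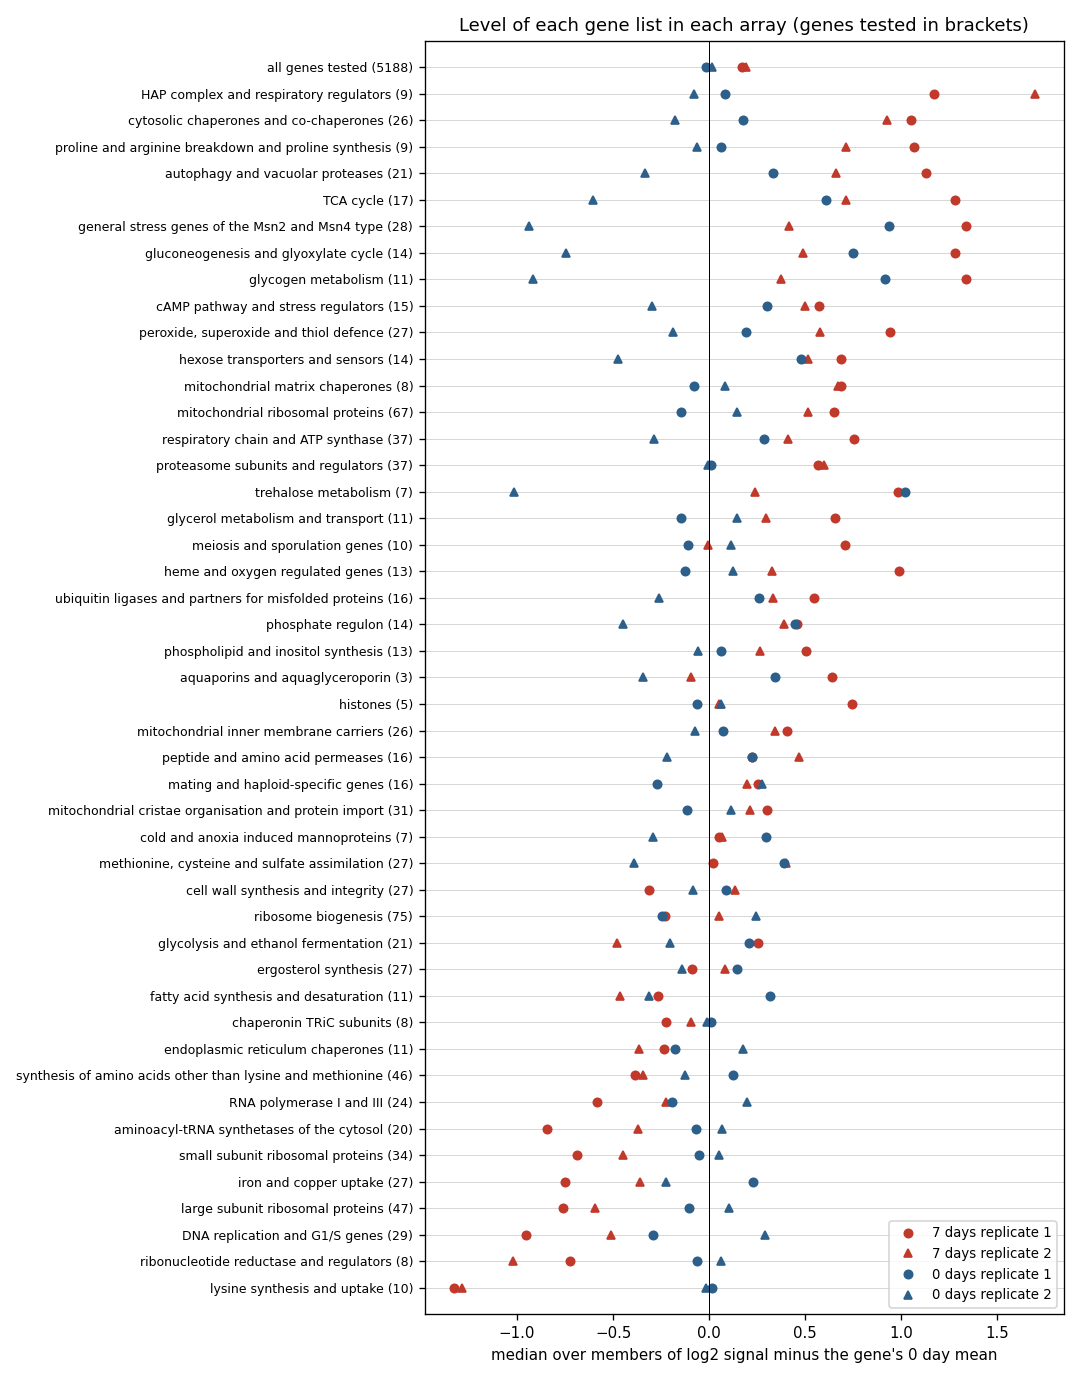
Level of each gene group in each array, as the median over members of the log2 signal minus the gene's own 0 day mean (x axis), with groups down the page and the number of genes tested in brackets. Red marks are 7 days and blue marks 0 days (circles replicate 1, triangles replicate 2), and lysine synthesis lies furthest below 0 with replicates nearly on each other, while the 0 day marks of general stress, trehalose and glycogen genes lie 1.83 to 2.04 log2 units apart.

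Chaperones of the cytosol, which bind unfolded proteins, lay higher at 7 days. Of 26 genes tested, 0 were called, 17 were higher and 0 lower at an unadjusted p under 0.05, and the median log2 fold change was 0.98. The group's level was 1.05 and 0.93 at 7 days against 0.18 and -0.18 at 0 days, so the times were separate. HSP82, a form of Hsp90, read 3010 and 2050 at 7 days and 897 and 482 at 0 days (log2 fold change 1.92, limma adjusted p = 0.0566), on a probe set that can also bind HSC82. HSP42, a small chaperone that sorts aggregates, read 5375 and 2668 at 7 days against 1317 and 1097 at 0 days (1.66, limma adjusted p = 0.0687). STI1, the co-chaperone that links Hsp70 to Hsp90, was at 1.30, the Hsp110 gene SSE2 at 1.92, the sorting factor gene CUR1 at 1.75 and the J-protein gene APJ1 at 1.79. The general J-protein genes YDJ1 and SIS1 were at 1.03 and 0.88, with adjusted p-values of 0.162 and 0.201 by limma. The disaggregase gene HSP104 read 969 and 1246 at 7 days and 886 and 656 at 0 days (0.53, SE 0.34, adjusted p = 0.417 by limma). The small chaperone gene HSP26 was at 1.37 (limma adjusted p = 0.192) and the Hsp70 gene SSA4 at 1.61 (limma adjusted p = 0.120).

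Chaperones of other compartments differed in their values. In the mitochondrial matrix, 3 of 8 genes were higher and 0 lower at an unadjusted p under 0.05, with a median of 0.65. Its co-chaperonin gene HSP10 read 4712 and 4671 at 7 days and 1828 and 2064 at 0 days (log2 fold change 1.27, limma adjusted p = 0.0566), and the J-protein gene MDJ1 was at 1.82. The chaperonin gene HSP60 read 4732 and 4553 at 7 days and 2816 and 1919 at 0 days. In the endoplasmic reticulum, 0 of 11 were higher and 2 lower, with a median of -0.34 (-0.0056 without 0 day replicate 2), and EUG1, a protein disulfide isomerase, was at -1.53 and the J-protein gene JEM1 at -1.77. The cytosolic chaperonin TRiC had a median of -0.31 over 8 genes, with CCT4 at -1.12 and CCT2 at 0.64. That median was -0.094 without 7 day replicate 1. With equal array medians it was 0.036, where all genes had a median of 0.30. The differences between these compartments were not tested.

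Protein turnover genes also lay mostly higher. Among 37 proteasome genes, FUB1 rose and 0 fell, 10 were higher and 1 lower at an unadjusted p under 0.05, and the median was 0.50. Replicates of the group agreed closely, with levels of 0.57 and 0.60 at 7 days and of 0.01 and -0.01 at 0 days. RPN4, the activator of proteasome genes, read 2415 and 2798 at 7 days against 934 and 1095 at 0 days (log2 fold change 1.36, limma adjusted p = 0.0925). Core and regulatory subunit genes were at 1.39 for PUP3, 1.13 for PRE6 and 1.23 for RPT3, which were chosen after their values were seen. The lowest value in the group was -2.65. In the ubiquitin group of 16 genes, ROQ1 rose and 0 fell. At an unadjusted p under 0.05, 3 were higher and 1 lower (18.75% and 6.25%, against 12.2% and 6.75% of all genes). The median was 0.45 (0.23 without 0 day replicate 2). RAD6, the ubiquitin-conjugating enzyme that works with Ubr1, was at 1.14, while RKR1, a ligase for stalled nascent chains, was at -1.19, and the polyubiquitin gene UBI4 was at 0.47 (limma adjusted p = 0.533). Autophagy and vacuolar protease genes had a median of 0.95 over 21 genes (0.52 without 0 day replicate 2), with 7 higher, 1 lower and 0 called. ATG8, the ubiquitin-like protein of the autophagosome, was at 1.54, ATG3 at 1.36, ATG11 at 1.56 and the vacuolar protease gene PEP4 at 0.79.

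All 10 genes tested for lysine synthesis and uptake lay lower at 7 days. Each had both 7 day arrays below both 0 day arrays and an unadjusted p under 0.05. Of all genes, 20.5% had the arrays apart in that direction and 6.75% were lower at that p. LYS9 fell and the other 9 were not called. The median log2 fold change was -1.27, and the group's level was -1.33 and -1.29 at 7 days against 0.01 and -0.01 at 0 days. Along the pathway, the homocitrate synthase genes LYS20 and LYS21 were at -0.62 and -1.28, homoaconitase LYS4 at -1.26 and homoisocitrate dehydrogenase LYS12 at -1.49. LYS12 read 794 and 917 at 7 days and 2269 and 2533 at 0 days. LYS2 stood at the value given above, LYS5, which activates the Lys2 enzyme, at -1.22, and LYS1, the enzyme of the last step, at -1.46. LYS14, the activator of the pathway's genes, was at -1.04, and the lysine permease gene LYP1 at -0.73. Without normalisation LYP1 was at 0.30, and all genes then had a median of 0.98. At 3 days the median of the group against 0 days was -0.06, and at 14 days it was -1.61.

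Genes for the other amino acids were lower to a smaller extent, a difference that was not tested. Of 46 genes, 0 were called, 10 were lower and 3 higher at an unadjusted p under 0.05, with a median of -0.38. The threonine synthase gene THR4 was at -1.36 and LEU2, of leucine synthesis, at 1.03. Sulfate assimilation and methionine genes had a median of 0.13 over 27 genes, with 6 higher and 1 lower. Its sign depended on 1 array, at 0.74 without 0 day replicate 1 and -0.21 without 0 day replicate 2. MET16, which reduces activated sulfate, read 1175 and 1590 at 7 days against 360 and 419 at 0 days (log2 fold change 1.82, limma adjusted p = 0.0608), and MET32, an activator of the pathway, was at 1.39. Among 16 permease genes, OPT2 fell and 0 rose, and the median was 0.26 (-0.21 without 0 day replicate 2). The proline permease gene PUT4 was at 2.20, the branched-chain amino acid permease gene BAP2 at 1.58 and the peptide transporter gene PTR2 at 1.22. The proline and arginine group had 5 of 9 genes higher and 0 lower at an unadjusted p under 0.05, with a median of 0.96. Both 7 day arrays lay above both 0 day arrays in 6 of the 9 and below them in 3. These are 66.7% and 33.3%, where all genes gave 29.8% and 20.5%. The lowest value was -0.74. Arginase CAR1 read 363 and 272 at 7 days against 66.0 and 98.9 at 0 days (1.96, limma adjusted p = 0.0677), CAR2, the next enzyme of arginine breakdown, was at 1.51 and the proline oxidase gene PUT1 at 0.89.

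Cytosolic ribosomal protein genes lay lower. Of 47 large subunit genes, 0 were called and 29 were lower and 1 higher at an unadjusted p under 0.05, with a median log2 fold change of -0.67. Of 34 small subunit genes, RPS1B fell and 0 rose, 15 were lower and 0 higher at an unadjusted p under 0.05, and the median was -0.53. Both 7 day arrays were below both 0 day arrays for 34 large subunit and 27 small subunit genes, 72.3% and 79.4% of those tested, where all genes gave 20.5%. RPL9A was at -1.59 and RPL17B at -0.94, both on probe sets shared with a near-identical copy. The genes RPS22A and RPS22B are near-identical copies, and RPS22B was at -0.85 by its brightest probe set and at -2.22 by another, so the size of the difference depended on the probe set. The probe set at -2.22 passed in the fit of all probe sets (limma adjusted p = 0.0346).

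The other genes of protein synthesis were lower or mixed. Ribosome biogenesis genes had a median of -0.019 over 75 genes (-0.32 and 0.22 without 0 day replicates 1 and 2), with 12 lower and 3 higher at an unadjusted p under 0.05 and 0 called. Its members with the smallest p went in opposite directions, with UTP25 at -1.62 and NOP58, a core protein of box C/D particles, at 0.71. Other probe sets of NOP58 gave 0.73, -0.21 and -0.96, so its direction depended on the probe set. RNA polymerase I and III genes had a median of -0.48 over 24 genes, with 4 lower and 1 higher. RPC25 was at -1.34, and RPA190, the largest subunit of polymerase I, at -1.10 by its brightest probe set and from -0.59 to 0.043 by the others that passed the filter. Aminoacyl-tRNA synthetases had a median of -0.51 over 20 genes, with 5 lower and 0 higher. CDC60, which charges leucine, was at -1.13 and HTS1, which charges histidine, at -0.90. In contrast to these medians, that of 67 mitochondrial ribosomal protein genes was 0.59, with 16 higher, 1 lower and 0 called. MRPL40 was at 1.60 and MRPL4 at 1.51.

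Ribonucleotide reductase and replication genes lay lower as well. Of 8 genes of ribonucleotide reductase and its regulators, RNR1 fell and 0 rose, and the median log2 fold change was -0.82. RNR3, an alternative large subunit, read 129 and 98.0 at 7 days and 383 and 1358 at 0 days (-2.68, limma adjusted p = 0.0677), with a wide gap between the 0 day arrays, and its probe set is shared with related transcripts. The small subunit genes differed in value, with RNR2 at -1.34 and RNR4 at -0.12. RNR4 had a standard error of 0.45 and was above 0 in some alternatives. Of 29 DNA replication genes, 0 were called, 9 were lower and 0 higher at an unadjusted p under 0.05, and the median was -0.78 (-0.51 without 7 day replicate 1 or 0 day replicate 2). POL30, the sliding clamp, read 52.9 and 113 at 7 days against 277 and 562 at 0 days (-2.35, limma adjusted p = 0.0677). POL12, a subunit of the polymerase that starts strands, was at -2.08 and RFA3, of the single-strand binding complex, at -2.20. CDC21, thymidylate synthase, was at -3.03 with 7 day signals of 10.0 and 4.44, below most genes tested. Of the histone genes 5 of 11 were tested, and 4 of the 5 were above 0. Their median was 0.40 (0.051 without 7 day replicate 1), with HTB2 at -1.44 and HTZ1 at 0.77.

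**Figure D4:**
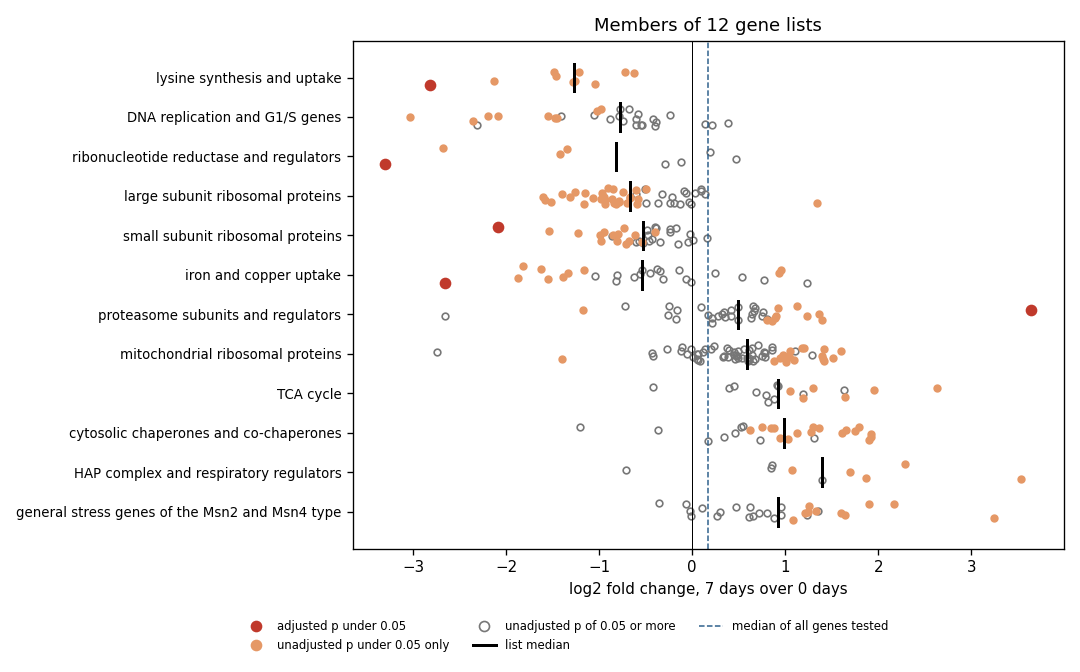
Log2 fold change of 7 days over 0 days (x axis) for each tested member of 12 gene groups (rows), with the group median as a black bar and the median of all genes, 0.17, as a dashed line. Red points passed the test over all genes, orange points had an unadjusted p under 0.05 only, and all 10 lysine genes lie left of 0 while 24 of 26 cytosolic chaperone genes lie right of it.

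Respiratory groups had medians above 0, with no call in the TCA cycle, the respiratory chain or their regulators, and 2 of these 3 medians depended on 0 day replicate 2. The regulators of the HAP type had the highest median of all groups, 1.40 over 9 genes, with 5 higher and 0 lower at an unadjusted p under 0.05. HAP4, the activating subunit of the complex that turns on respiratory genes, read 332 and 455 at 7 days against 113 and 101 at 0 days (log2 fold change 1.87, limma adjusted p = 0.0566). Its partners were at 2.29 for HAP5, 1.69 for HAP2 and 1.07 for HAP3, whereas HAP1, the heme-responsive activator, was at -0.71, and at -1.54 and -1.88 by its other probe sets. RSF1, another regulator of respiration, was at 3.53, but 0 day replicate 2 was at the floor. The TCA cycle had a median of 0.93 over 17 genes with 6 higher and 0 lower. That median was 1.56 without 0 day replicate 1 and 0.45 without 0 day replicate 2. IDH1 and IDH2, which form isocitrate dehydrogenase, were at 1.96 and 2.63, aconitase ACO1 at 1.64 and fumarase FUM1 at 1.19. IDH2 read 4124 and 6575 at 7 days but 1703 and 414 at 0 days, a 0 day gap wider than that of IDH1, which read 1124 and 948 at 7 days and 338 and 209 at 0 days. Respiratory chain genes had a median of 0.58 over 37 genes, but 0.13 without 0 day replicate 2, close to the 0.14 of all genes then. Of these, 6 were higher and 0 lower, among them QCR2 at 1.66 and SCO1 at 1.46.

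Mitochondrial transport genes had values on both sides of 0. Among 26 inner membrane carriers, DIC1 rose and 0 fell, 6 were higher and 4 lower at an unadjusted p under 0.05, and the median was 0.27. Single members differed in sign, and among the lower ones the citrate carrier CTP1 was at -1.11 and the oxodicarboxylate carrier ODC2 at -1.32, neither called. Of 31 cristae and import genes, MIC10 rose and 0 fell, 4 were higher and 0 lower, and the median was 0.25, close to that of all genes. MIA40, which imports proteins into the intermembrane space, was at 1.42 and the translocase gene TIM23 at 1.04. In the heme and oxygen group the median was 0.46 over 13 genes, with ROX1 at 2.49 and CYC7, the hypoxic form of cytochrome c, at 1.26.

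Stress and reserve carbohydrate genes had raised medians that depended on one 0 day array. General stress genes, 28 in number, had a median of 0.92, with 10 higher and 0 lower at an unadjusted p under 0.05 and 0 called. Their level was 1.33 and 0.42 at 7 days, against 0.94 and -0.94 at 0 days, so 0 day replicate 1 lay between the 7 day arrays. The median was 1.74 without 0 day replicate 1 and -0.17 without 0 day replicate 2. HSP12, a membrane-protecting protein of dried and stressed cells, read 8056 and 8369 at 7 days against 3855 and 3133 at 0 days (1.24, limma adjusted p = 0.0608), and was among those with separate times. CTT1, the cytosolic catalase, read 50.1 and 57.6 at 7 days against 2.52, the floor, and 12.9 at 0 days, and was at 3.24 (limma adjusted p = 0.111). SSA3, a stress-inducible Hsp70, was at 1.90 and the superoxide dismutase gene SOD2 at 1.23 (limma adjusted p = 0.231).

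Cryoprotectant genes showed the same dependence where they were reserve carbohydrate genes. Trehalose genes had a median of 0.48 over 7 genes, 1.51 without 0 day replicate 1 and -0.30 without 0 day replicate 2. TPS1, the trehalose phosphate synthase, read 372 and 190 at 7 days and 326 and 79.4 at 0 days (log2 fold change 0.72, limma adjusted p = 0.536), and TSL1, a regulatory subunit, read 337 and 125 at 7 days and 447 and 65.3 at 0 days (0.27). The trehalase genes ATH1 and NTH1 were at 1.79 and 1.09. Glycogen genes had a median of 0.80 over 11 genes, 1.57 without 0 day replicate 1 and -0.03 without 0 day replicate 2, with the synthase genes GSY1 at 1.52 and GSY2 at 1.33. In glycerol metabolism the median was 0.47 over 11 genes. GPD1 read 752 and 1244 at 7 days and 1338 and 271 at 0 days (0.68, limma adjusted p = 0.577), while GPD2, the form used without oxygen, read 109 and 95.2 at 7 days and 359 and 406 at 0 days (-1.90, limma adjusted p = 0.0898). The glycerol importer STL1 was at 1.46, the dihydroxyacetone kinase DAK2 at 2.29 and the reductase GCY1 at 1.26. The water channel genes AQY1 and AQY2 were at 1.22 and 0.41, both below 0 without one of the 7 day arrays.

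Defences against peroxide and superoxide had a median of 0.67 over 27 genes, with 7 higher and 0 lower at an unadjusted p under 0.05 and 0 called, and the median was 0.43 without 0 day replicate 2. The peroxiredoxin gene TSA1 read 1274 and 2816 at 7 days against 957 and 725 at 0 days (log2 fold change 1.18, limma adjusted p = 0.166). In the cAMP and stress regulator group the median was 0.70 over 15 genes, and 0.073 without 0 day replicate 2. The kinase gene RIM15 was at 1.47 and TPK2 at 2.26, the value of TPK2 being 3.46 without 0 day replicate 1 and 1.05 without 0 day replicate 2.

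The groups of carbon metabolism had medians on both sides of 0. Glycolysis and fermentation genes had a median of -0.08 over 21 genes (-0.48 and 0.25 without 7 day replicates 1 and 2), with 6 lower and 0 higher at an unadjusted p under 0.05. PDC5, a pyruvate decarboxylase, was at -1.57, and ENO2, an enolase read by a probe set shared with ENO1, was at -2.39 with 7 day signals as far apart as 929 and 122. Gluconeogenesis and glyoxylate genes had a median of 0.80 over 14 genes, 1.68 without 0 day replicate 1 and -0.13 without 0 day replicate 2. ICL1, isocitrate lyase, was at 1.24 and MLS1, malate synthase, at 1.15. Hexose transporter genes had a median of 0.65 over 14 genes, and 0.20 without 0 day replicate 2. The high-affinity transporter genes HXT2 and HXT6 were at 1.07 and 0.96, and at 0.49 and 0.34 without that array.

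Iron and copper uptake genes tended to lie lower. Of 27 genes, SMF3 fell and 0 rose, 8 were lower and 2 higher at an unadjusted p under 0.05, and the median log2 fold change was -0.54 (-0.28 without 0 day replicate 1). FET4, a low-affinity iron transporter, read 371 and 535 at 7 days against 1637 and 1633 at 0 days (-1.88, limma adjusted p = 0.0677). The high-affinity system was at -1.55 for its permease gene FTR1 and -1.39 for its oxidase gene FET3, and the reductase gene FRE4 was at -1.81. FET3 overlapped between the times, with signals of 435 and 1610 at 7 days and of 3087 and 1548 at 0 days. Phosphate genes had a median of 0.43 over 14 genes, 0.94 without 0 day replicate 1 and 0.0064 without 0 day replicate 2, and their levels overlapped between the times. Their activator PHO4 was at 1.81, the transporter gene PHO84 at 1.39 and SPL2, which restrains low-affinity phosphate uptake, at 1.47, while the thiamine-regulated phosphatase gene PHO3 was at -1.73.

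Membrane lipid genes had few members past an unadjusted p under 0.05. Of 27 ergosterol genes there were 0 in either direction, with a median of -0.10, ERG9 at 1.15 and ERG12 at -1.22. ERG11, the lanosterol demethylase, read 3915 and 3508 at 7 days and 4515 and 3931 at 0 days (log2 fold change -0.18, limma adjusted p = 0.803). OLE1, the fatty acid desaturase, read 2621 and 1471 at 7 days and 2379 and 936 at 0 days (0.40, limma adjusted p = 0.689), with overlapping arrays. In the fatty acid group the median was -0.31 over 11 genes (-0.69 without 0 day replicate 2), with the elongase gene ELO2 at -1.34 and FAS1 at -1.25, although 3 other probe sets of FAS1 gave values above 0. INO2, the activator of phospholipid synthesis, read 220 and 552 at 7 days against 25.3 and 47.9 at 0 days (3.32, limma adjusted p = 0.0608), and its repressor OPI1 was at 0.88. Of 7 mannoprotein genes, TIP1 rose and 0 fell, and the median was 0.21 (-0.19 without 0 day replicate 2). Wall genes had a median of 0.016 over 27 genes, 3 of them higher and 6 lower at an unadjusted p under 0.05, with CRH1, a transglycosylase, at -1.62 and RLM1, an activator of the integrity pathway, at 1.12.

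Genes of cell state gave few differences. Of 16 mating and haploid-specific genes, 0 were higher and 0 lower at an unadjusted p under 0.05, with the a-factor genes MFA1 at 0.84 and MFA2 at 0.88. Of 22 meiosis genes, 10 passed the filter on low signal, with 1 higher and 0 lower at an unadjusted p under 0.05. Their median was 0.46, with SPR6 at 2.26 and SPS1 at 1.17. The sign of that median was not stable. It was -0.0063 and 0.71 without 7 day replicates 1 and 2, and -0.17 and -0.14 without 0 day replicates 1 and 2. With no filter it was -0.27, and with the filter at the median 1.10.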

How the data were processed

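The authors deposited linear intensities for each probe set and array. RNA was extracted with hot phenol and enriched for poly(A) RNA, and biotin-labelled cRNA was hybridised to Affymetrix arrays, per the labels' protocols. The summarisation software is not given in the sources used here. Arrays have no read depth, and their number limits the precision.

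From 9335 probe sets, 60 controls were removed. The rest were quantile normalised, raised to a floor of 2.52 (pooled 5th percentile) and put on the log2 scale. Probe sets with a mean under the 25th percentile (4.16) were left out, and the brightest probe set represented each gene, named by the platform annotation. This left 5188 of 5656 genes.

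Limma 3.58.1 in R 4.3.3 fitted 1 coefficient per time to all 8 arrays (4 residual and 6.89 prior degrees of freedom), with an intensity trend, two-sided tests and Benjamini-Hochberg adjustment over all genes at 0.05. Named genes are all called genes, the 10 uncalled with the smallest p each way, for lists without a call the 2 members of smallest p, and 13 fixed genes. A further 51 were chosen after their values were seen. The comparison, lists and rules were chosen with earlier results of these data known. No probe or promoter sequences were used here.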

Additional observations from a re-analysis of the deposited data

Results flagged for a closer look

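The ribosomal RNA control probe sets, which no comparison of genes used, stood higher at 7 days. Relative to the array median their mean was 1.35 log2 units above that of 0 days (4.10 and 4.50 at 7 days, 3.15 and 2.76 at 0 days). The 10 probe sets ranged from 0.45 to 2.27, all higher as means over the arrays of a time. In some of them single arrays overlapped between the times. The probe set at 0.45 read 6.98 and 47.8 times the array median at 7 days, against 24.5 and 7.27 times at 0 days. A probe set at 0.48 overlapped as well.

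Probe sets that carry no gene name also held signal, and 2 of the 1050 tested were called higher at 7 days in a fit of all 6956 probe sets (21 called, 0.302%). The first had signals of 105 and 87.9 at 7 days against 6.45 and 9.66 at 0 days (log2 fold change 3.60, limma adjusted p = 0.0346). The second had 149 and 114 at 7 days against 19.003 and 21.3 at 0 days (2.70, limma adjusted p = 0.0427). A further 3 without a name were called lower, at -1.87, -2.74 and -2.09.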

How the results depend on the processing

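The count of 11 called genes ranged from 0 to 147 when 1 array was left out. It was 35 with equal array medians (31 higher), 1422 on the deposited scale (1413 higher, median of all genes 0.98), 58 with the filter at the median, 0 with no intensity trend and 127 at an adjusted p under 0.1, a threshold added after the data were seen. With replicate number as a block it was 37 and included all 11. Deviations of same-numbered replicates correlated at r = -0.09 to 0.29 between times, positive in 5 of 6 pairs of times and over 0.1 in 3. For 0 and 7 days r was 0.086. The numbers were not taken to pair samples, a choice that this check does not settle. With array weights it was 8, with only the 4 compared arrays 9, with no floor or no filter 10, with the floor at the 10th percentile 12, and 16 with the mean over the probe sets of a gene.

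Directions changed for some uncalled genes. On the deposited scale HTS1 was at 0.11, ERG11 at 0.35, RNR4 at 0.89, LYP1 at 0.30 and HAP1 at 0.27. With equal array medians RNR4 was at 0.21, and FAS1 was at 0.12 as a mean of probe sets. Leaving out 1 array at a time gave ranges of -0.097 to 2.53 for AQY1, -0.072 to 0.89 for AQY2, -0.30 to 1.74 for TPS1, -1.12 to 1.65 for TSL1, -0.47 to 1.84 for GPD1, -0.28 to 1.07 for OLE1 and -0.53 to 0.29 for RNR4. Of the 46 gene groups, 23 changed the sign of their median under some alternative.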
